A study of Mus musculus with 25 samples.

Results

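The genes described here are 9 ATP-binding cassette (ABC) transporter genes that export drugs, lipids or organic anions from cells: Abcb1a, Abcb1b, Abcb4, Abcg2, Abcc1, Abcc4, Abcc5, Abca1 and Abcg1. They are 9 of the 56941 genes in a table of read counts from 25 mouse hearts, found by matching the table's Ensembl identifiers to these symbols. Abcb1a was selected on measured values, because its difference between saline-pump and no-pump hearts was not the same in the 2 genotypes. The other 8 were chosen as its relatives by family and function. The values that chose Abcb1a are therefore given as a description, without a test.

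ABC transporters use ATP to move substrates out of a cell or across a membrane leaflet. Rodents carry a pair of P-glycoprotein genes, Abcb1a and Abcb1b, for the drug pump that is encoded by a single gene in humans, and P-glycoprotein and Abcg2 are known for keeping drugs out of tissue at the capillary endothelium. Abcb4 translocates phosphatidylcholine, Abcc1, Abcc4 and Abcc5 export organic anions, conjugates and cyclic nucleotides, and Abca1 and Abcg1 pass cholesterol to apolipoproteins and high-density lipoprotein.

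Total RNA from hearts was depleted of ribosomal RNA and sequenced from stranded libraries. The study asked how lactate handling bears on cardiac enlargement, by giving control mice and mice labelled MCT1KO the hypertrophic agonists labelled Ang/PE. Wild-type (WT) hearts came from 4 mice without a pump, 6 with saline and 3 with Ang/PE. Hearts labelled MCT1KO came from 3 mice without a pump, 4 with saline and 5 with Ang/PE. MCT1 is the lactate and pyruvate carrier encoded by Slc16a1. The labels name no Cre driver, strain, sex, age, dose or infusion time, and they do not say whether the hearts of a group came from separate cages or litters, so p-values measure the spread between these hearts.

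Each heart had 12216704 to 24880683 reads counted to genes. Slc16a1 did not separate the genotypes: it lay at 150.29 to 233.1 CPM (read counts scaled to a common library size) in WT and 166.52 to 223.13 CPM in MCT1KO hearts without a pump, and its log2 differences, MCT1KO minus WT, were -0.02 without a pump, -0.33 with saline and -0.18 with Ang/PE (standard errors (SE) 0.15, 0.13 and 0.15; edgeR adjusted p = 0.976, 0.219 and 0.807). The hearts are therefore called "labelled MCT1KO" or by that label throughout. Saline hearts also differed in tissue. The summed level of 3 atrial muscle markers (Myl7, Myl4, Sln) was above 100 CPM in 7 saline hearts, 4 WT and 3 MCT1KO, and at most 5.73 CPM in every heart without a pump or with Ang/PE. It reached 3679 CPM in MCT1KO saline replicate 4, which also held 1448 CPM of 6 adipocyte markers. Xist, the transcript of the inactive X chromosome in females, was detected above 10 CPM in 2 of 4 WT and 0 of 3 MCT1KO hearts without a pump, in 1 of 6 and 3 of 4 with saline, and in 3 of 3 and 4 of 5 with Ang/PE. The part of tissue and sex in the results was not tested beyond the values given beside them.

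Abcb1a and Abcb1b are near copies of each other, so the assignment of reads between them matters for every value of this pair. Abcb4 is a more distant relative. Over the transcripts with the longest coding parts (GENCODE M21, GRCm38), 87.7% of 3840 aligned bases were identical between Abcb1a and Abcb1b. The figure was 75.1% between Abcb1a and Abcb4. The longest unbroken run shared by Abcb1a and Abcb1b was 338 bases. The stretch printed first lies inside that run and codes for the first of 2 ABC signature motifs, in capitals; a read lying wholly inside it fits both genes. The other 2 are the 60 bases at which the pair differ most, with the 25 differing bases in capitals.
Abcb1a and Abcb1b, coding bases 1519 to 1638 of Abcb1a: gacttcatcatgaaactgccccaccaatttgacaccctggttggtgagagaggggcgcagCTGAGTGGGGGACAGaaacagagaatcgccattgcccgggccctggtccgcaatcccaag
Abcb1a, coding bases 1913 to 1972: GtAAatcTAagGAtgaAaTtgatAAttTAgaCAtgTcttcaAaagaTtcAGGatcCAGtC
Abcb1b, coding bases 1922 to 1981: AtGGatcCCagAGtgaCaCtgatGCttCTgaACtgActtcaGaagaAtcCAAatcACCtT

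Of all 50-base words of the Abcb1a transcript, 17% also occurred in Abcb1b or Abcb4, and the share was 18.3% for Abcb1b and 3.42% for Abcb4. How the authors' counting treated reads that fit several genes is not given in the sources used here, and Abcb1a and Abcb1b levels are uncertain to that extent.

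The 250 bases before the RefSeq start of each gene (GRCm38.p6) are shown for comparison with the coding parts.
Abcb1a, chr5:8566841-8567090, plus strand: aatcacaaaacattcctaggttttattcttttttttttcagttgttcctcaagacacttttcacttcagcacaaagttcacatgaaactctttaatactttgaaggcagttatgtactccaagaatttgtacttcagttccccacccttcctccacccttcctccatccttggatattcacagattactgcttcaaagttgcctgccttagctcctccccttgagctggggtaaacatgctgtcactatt
Abcb1b, chr5:8797897-8798146, plus strand: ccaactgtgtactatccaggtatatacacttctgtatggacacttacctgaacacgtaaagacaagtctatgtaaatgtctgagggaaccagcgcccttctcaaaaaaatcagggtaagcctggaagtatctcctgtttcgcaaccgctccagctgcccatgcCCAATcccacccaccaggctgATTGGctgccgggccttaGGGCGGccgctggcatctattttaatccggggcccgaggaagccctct

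Capitals mark matches to 4 motifs searched on both strands: the CCAAT box (CCAAT), the GC box (GGGCGG), the E-box (CACGTG) and the D-box (TTATGNAA). The Abcb1b window held CCAAT 87 bases before the start, its reverse complement 66 bases before it, and a GC box 48 bases before it. The Abcb1a window held none of the 4, with 40.4% G and C against 52.8% for Abcb1b. Over 32851 promoters of this length the motifs occurred in 33.8%, 32.7%, 6.02% and 3.07%. Start sites were on hand for 7 of the 9 genes.

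Levels between genes are compared per length of merged exons. Abca1 was the most abundant, with 11.4 ± 2.25 CPM per kilobase (SD, n = 25 hearts), followed by Abcc5 with 7.61 ± 0.655. Abcb1a, Abcc1, Abcc4, Abcb4 and Abcg2 lay between 3.85 and 4.88 CPM per kilobase. Abcg1, with 1.29 ± 0.290, and Abcb1b, with 1.23 ± 0.245, were lowest. The order depends on the gene model: per kilobase of the coding transcript, Abcc5 (15.1) and Abcg2 (14.4) stood above Abca1 (11.5). All 9 genes passed the filter on low counts, with 83 (Abcb1b) to 3424 (Abca1) reads per heart.

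No gene of the 9 differed between group means by more than 1.7-fold. That was the ratio for Abcb4, and Abcb1a (1.52-fold), Abcg1 (1.48-fold) and Abcb1b (1.41-fold) followed. Abcc5 varied least, by 1.13-fold.

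**Figure D1:**
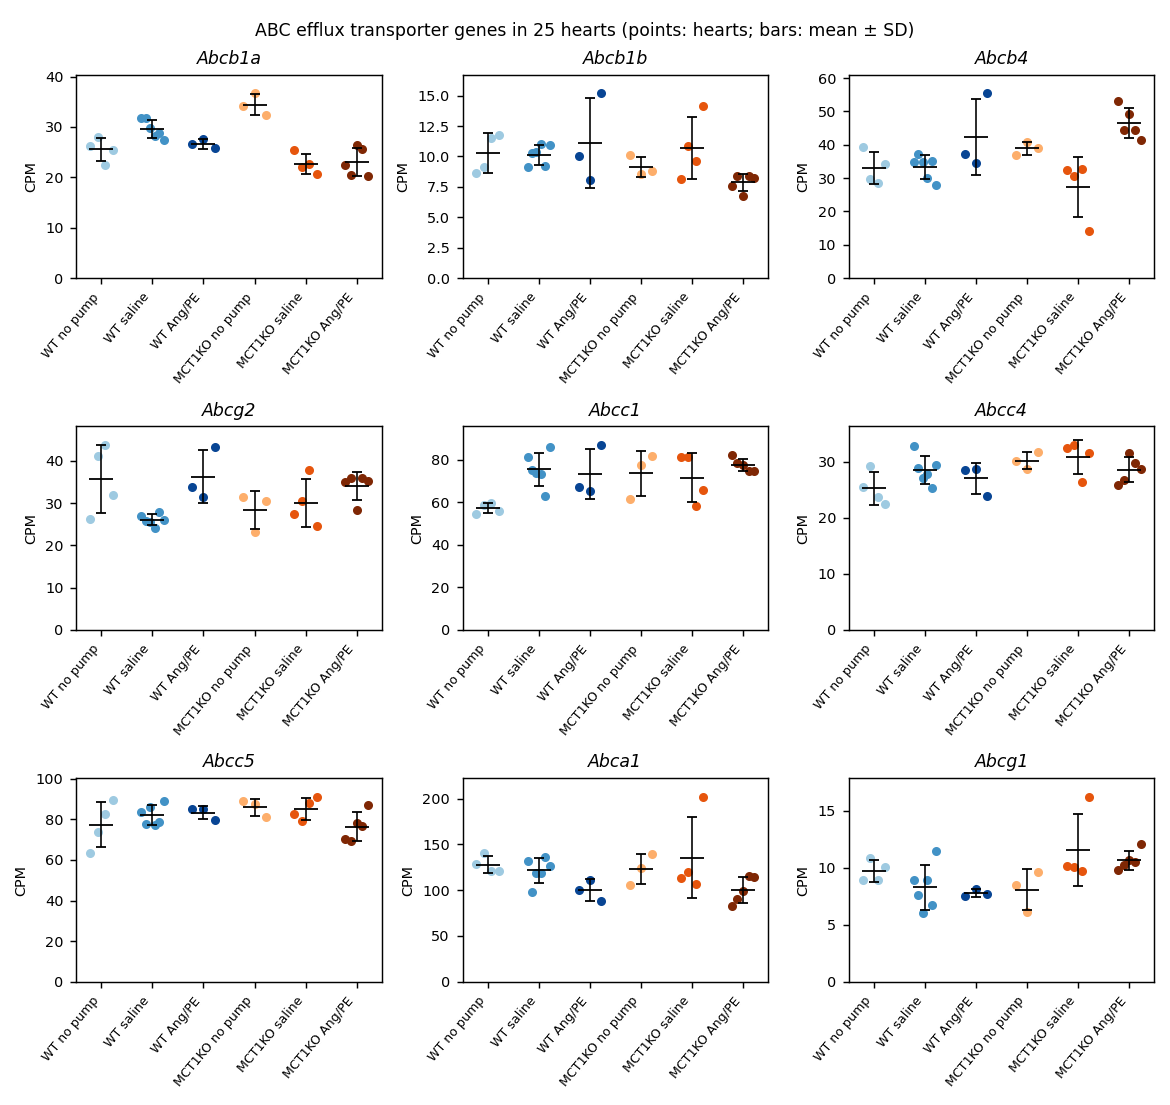
Level of each of the 9 genes in CPM in the 6 groups, with 1 point per heart and the mean ± SD of each group as a bar and whiskers. Abcb1a is highest in the 3 MCT1KO hearts without a pump (32.4 to 36.7 CPM), and MCT1KO saline replicate 4 stands apart in Abcb4, Abca1 and Abcg1.

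Abcb1a (ENSMUSG00000040584) was at 34.1, 36.7 and 32.4 CPM in the MCT1KO hearts without a pump and at 25.4, 22.1, 22.6 and 20.7 CPM in those with saline. In WT hearts it was at 26.1, 28.1, 22.5 and 25.5 CPM without a pump, and with saline it ran from 27.4 to 31.9 CPM with a median of 29.2. The 2 MCT1KO groups did not overlap, the 2 WT groups did, and all 3 MCT1KO hearts without a pump were above every WT heart of these groups. On the log2 scale the saline hearts differed from those without a pump by -0.60 (SE 0.10) in MCT1KO and by 0.21 (SE 0.08) in WT, and the difference of these 2 steps was -0.81 (SE 0.13). This last value is the one on which Abcb1a was chosen, so it and its parts carry no test here. Without MCT1KO saline replicate 4 it was -0.76, and without the 7 saline hearts with atrial markers, which leaves 2 WT and 1 MCT1KO saline heart, it was -0.90.

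With Ang/PE, Abcb1a was at 26.5, 27.5 and 25.7 CPM in WT hearts and at 22.4, 20.5, 26.4, 25.6 and 20.3 CPM in MCT1KO hearts. The values of these hearts do not enter the log2 difference on which the gene was chosen. They do enter the estimate of spread in the fit over all 6 groups, so the comparison is not fully separate from that choice. The MCT1KO hearts ran lower on average, 23.01 ± 2.83 CPM (SD, n = 5) against 26.6 ± 0.905 (n = 3), but the groups overlapped, and the log2 difference of -0.21 (SE 0.10; 95% confidence interval -0.41 to -0.01) did not pass edgeR's test (adjusted p = 0.711).

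The other comparisons with Ang/PE use no-pump or saline hearts that entered the choice of Abcb1a, so their values are also given without a test. Against hearts without a pump, Ang/PE hearts differed by -0.58 on the log2 scale (SE 0.09) in MCT1KO, with no overlap between the 5 and the 3 hearts, and by 0.06 (SE 0.10) in WT. The difference of these 2 steps was -0.64 (SE 0.14). The MCT1KO value was -0.54 without MCT1KO no-pump replicate 2. Against saline, Ang/PE hearts differed by 0.02 (SE 0.09) in MCT1KO and by -0.15 (SE 0.09) in WT.

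In descending order of group means, Abcb1a ran from MCT1KO without a pump through WT saline, WT Ang/PE, WT without a pump and MCT1KO Ang/PE to MCT1KO saline. MCT1KO without a pump and WT saline were the only neighbours in this order whose hearts did not overlap. Xist followed part of the same split, since none of the 3 MCT1KO hearts without a pump had it. Among hearts without Xist, Abcb1a was at 32.4 to 36.7 CPM in those 3, at 20.7 CPM in the single MCT1KO saline heart and at 20.3 CPM in the single MCT1KO Ang/PE heart, against 25.5 to 26.1 CPM in 2 WT hearts without a pump and 28.3 to 31.9 CPM in 5 with saline. With Xist as a covariate the MCT1KO difference of Ang/PE from no pump was -0.62. Fewer endothelial cells and less transcript per cell cannot be told apart in bulk heart RNA. None of 8 endothelial markers was called in any of the 12 comparisons. Few genes were called at all against no pump in MCT1KO, 1 of 17682 with saline and 89 with Ang/PE. Little can be read from a missing call there. In both of these comparisons 6 of the 8 markers had negative log2 differences, with a median of -0.16. With saline in WT, 5 of the 8 were positive, with a median of 0.09. The summed level of the 8 was 975 to 1088 CPM in MCT1KO hearts without a pump, 880 to 1006 CPM with saline and 834 to 1074 CPM with Ang/PE. Over the 25 hearts, deviations of Abcb1a from its group means were set beside those of the mean log2 CPM of marker lists. They had r = 0.433 (Spearman's rho 0.441) with endothelial markers and r = -0.743 (rho -0.765) with 5 fibroblast markers. Without the 2 farthest hearts these were 0.398 and -0.681. With cardiomyocyte markers r was 0.55, larger than with endothelial markers, and with macrophage markers it was -0.50. The remaining lists lay between -0.26 and -0.056. These are descriptions over libraries that share their normalization.

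**Figure D2:**
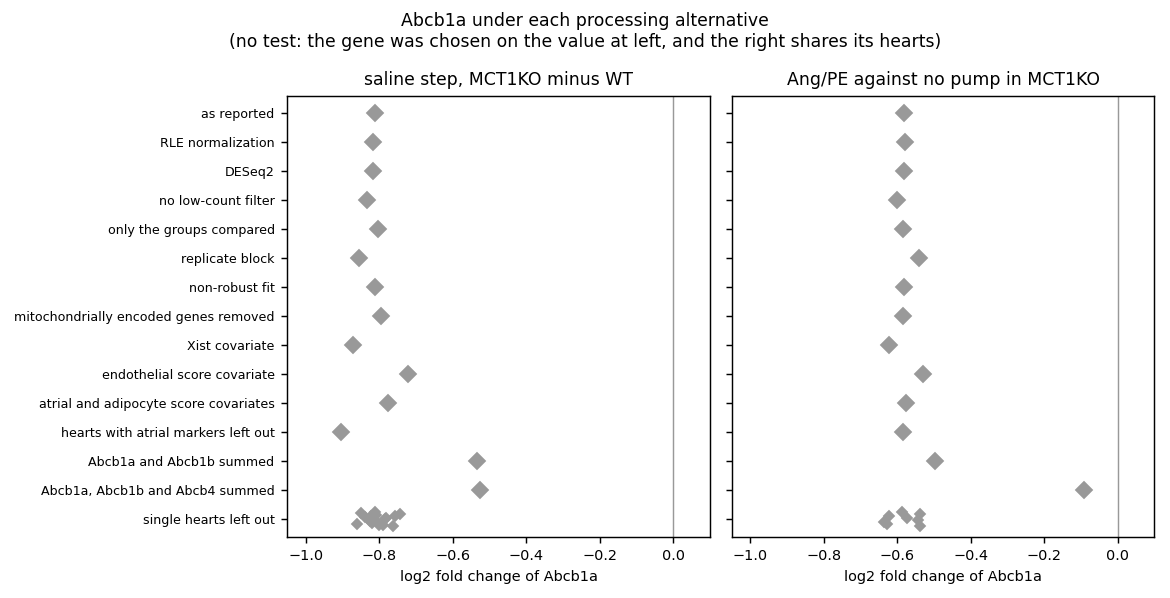
Log2 fold change of Abcb1a (x axis) under each processing alternative and with single hearts left out (y axis), for the genotype difference of the saline step (left) and for Ang/PE against no pump in MCT1KO (right), without a test because the gene was chosen on the first and the second shares its hearts. Every value shown is below 0, from -0.90 to -0.53 on the left and from -0.64 to -0.09 on the right, where the value nearest 0 is the sum with Abcb1b and Abcb4.

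Abcb1b (ENSMUSG00000028970), the second P-glycoprotein gene, was called in none of the 12 comparisons. It was at 10.1, 8.55 and 8.80 CPM in MCT1KO hearts without a pump and at 8.13, 10.9, 9.62 and 14.2 CPM with saline, with a saline step of 0.22 (SE 0.18; edgeR adjusted p = 0.658). With Ang/PE it was at 7.59, 8.38, 6.77, 8.37 and 8.22 CPM in MCT1KO hearts and at 10.1, 8.04 and 15.2 CPM in WT hearts. The MCT1KO values were tightly grouped and the WT values were spread, and the log2 difference of -0.49 (SE 0.17) did not pass (adjusted p = 0.692). When the reads of Abcb1a and Abcb1b were summed, so that assignment between these 2 no longer mattered, the MCT1KO difference of Ang/PE from no pump was -0.50, and the genotype difference of the saline step was -0.53. With the reads of Abcb4 added, the first was -0.09 and the second -0.53. Within groups the pair ran against each other: their deviations from group means had r = -0.557 (rho -0.638; n = 25 hearts), and r = -0.614 without the 2 hearts farthest in Abcb1b.

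Abcb4 (ENSMUSG00000042476), the phosphatidylcholine translocator and closest relative of the pair, rose with Ang/PE against saline in MCT1KO hearts. It was at 53.0, 44.5, 49.4, 44.5 and 41.5 CPM with Ang/PE and at 32.5, 30.5, 32.7 and 14 CPM with saline, with no overlap, and the log2 difference was 0.76 (SE 0.18; edgeR adjusted p = 0.0203). In the same comparison all 6 cardiomyocyte markers had positive log2 differences, with a median of 0.35, and 1 was called, and their part in the rise was not tested. The heart with the lowest Abcb4 value is MCT1KO saline replicate 4, which also had the most atrial and adipocyte transcripts. Without it the difference was 0.54 (adjusted p = 0.0648), without the 7 hearts with atrial markers 0.50 (adjusted p = 0.549), and with atrial and adipocyte scores as covariates 0.26 (adjusted p = 0.794). In WT hearts Abcb4 was at 37.3, 34.5 and 55.5 CPM with Ang/PE against 27.9 to 37.2 CPM (median 34.9) with saline. The WT groups overlapped, the step was 0.35 (SE 0.18; adjusted p = 0.308), and the difference of the 2 genotypes' steps, 0.41 (SE 0.26), did not pass (adjusted p = 0.475). For Ang/PE against saline in WT, 5 of the 6 cardiomyocyte markers had negative log2 differences, with a median of -0.20. Without a pump Abcb4 was at 37.0, 40.8 and 38.9 CPM in MCT1KO hearts and at 39.3, 29.8, 28.5 and 34.3 CPM in WT hearts, so the MCT1KO Ang/PE hearts were above all 7 of them. Against no pump the MCT1KO Ang/PE step was 0.26 (SE 0.19; adjusted p = 0.631), and the median of the cardiomyocyte markers was 0.022.

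Across the 25 hearts, Abcb4 ran with cardiomyocyte markers and against Abca1. Deviations from group means had r = 0.852 (rho 0.746) with the mean log2 CPM of 6 cardiomyocyte markers and r = -0.757 (rho -0.570) with Abca1. Without MCT1KO saline replicate 4 these were 0.696 and -0.567, and without the 2 hearts farthest from the median of the other measure 0.654 and -0.560. The second is 1 of 36 pairs among the 9 genes, and the hearts share their normalization, so both are descriptions.

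**Figure D3:**
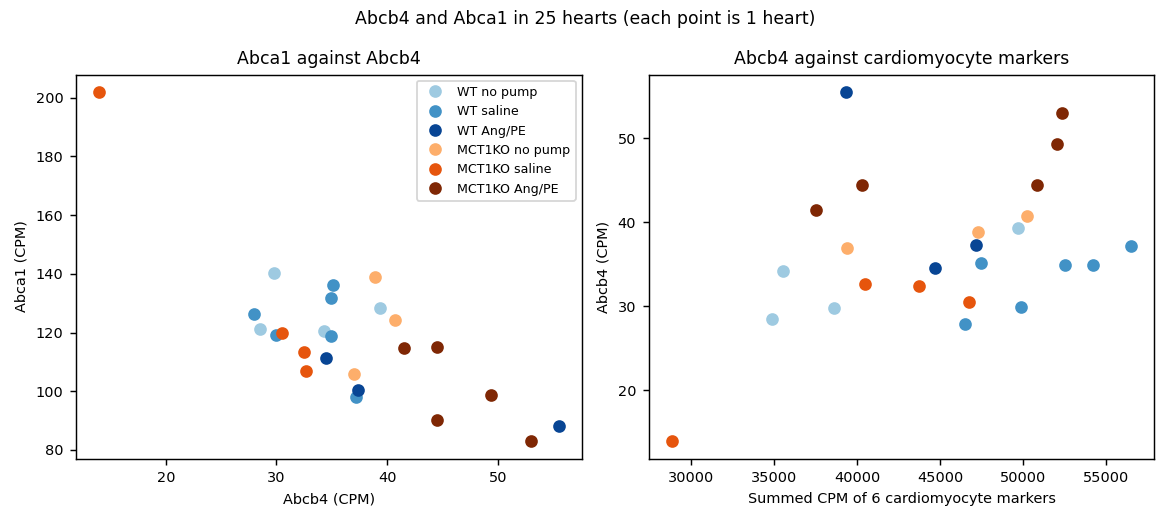
Abca1 against Abcb4 (left) and Abcb4 against the summed level of 6 cardiomyocyte markers (right), all in CPM, with 1 point per heart coloured by group. MCT1KO saline replicate 4 lies apart in both panels, at 14 CPM of Abcb4 and 202 CPM of Abca1, and the MCT1KO Ang/PE hearts lie at 41.5 to 53.0 CPM of Abcb4.

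The count of genes called at an adjusted p below 0.05 sets the scale for the 9. In WT, saline against no pump called 1168 of 17682 genes (6.61%), and among the 9 it called Abcc1 higher and Abcg2 lower. The members' median log2 difference was 0.015, beside 0.0020 for all genes. Ang/PE against saline in MCT1KO called 788 genes (4.46%), and Abcb4 of the 9, with medians of -0.11 and -0.011. Ang/PE against no pump in MCT1KO called 89 genes (0.503%), with medians of -0.080 and -0.0030; Abcb1a was the member called, in a comparison that shares hearts with its choice. Saline against no pump in MCT1KO and the genotype difference of the saline step called 1 gene each (0.00566%), against 212 and 369 with DESeq2, and against up to 626 and 663 when 1 heart was left out (MCT1KO saline replicate 3 and WT no-pump replicate 1). That gene was Abcb1a, from which nothing is read because it was chosen there, and none of the other 8 was called. Without the 7 saline hearts with atrial markers edgeR called 0 genes in each of the comparisons that use a saline group, and 83 for Ang/PE against no pump in MCT1KO. These comparisons share the hearts of their common groups and are not independent of each other.

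In the other 7 comparisons no member was called. Ang/PE against saline in WT called 3 genes (0.017%), against 649 with DESeq2, 945 when only the groups compared were fitted and 131 without WT Ang/PE replicate 1. The genotype comparisons called 0 genes (0%) with edgeR without a pump, with saline and with Ang/PE, where 2157, 3014 and 1223 genes had an unadjusted p below 0.05 and DESeq2 called 104, 145 and 4. The DESeq2 calls with saline include Abcb1a, in a part of the comparison it was chosen on, and no other member. Ang/PE against no pump in WT also called 0 (0%; 1595 genes unadjusted, 35 with DESeq2), as did the genotype differences of the Ang/PE step over saline (0%; 2392 and 11) and over no pump (0%; 960 and 2).

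**Figure D4:**
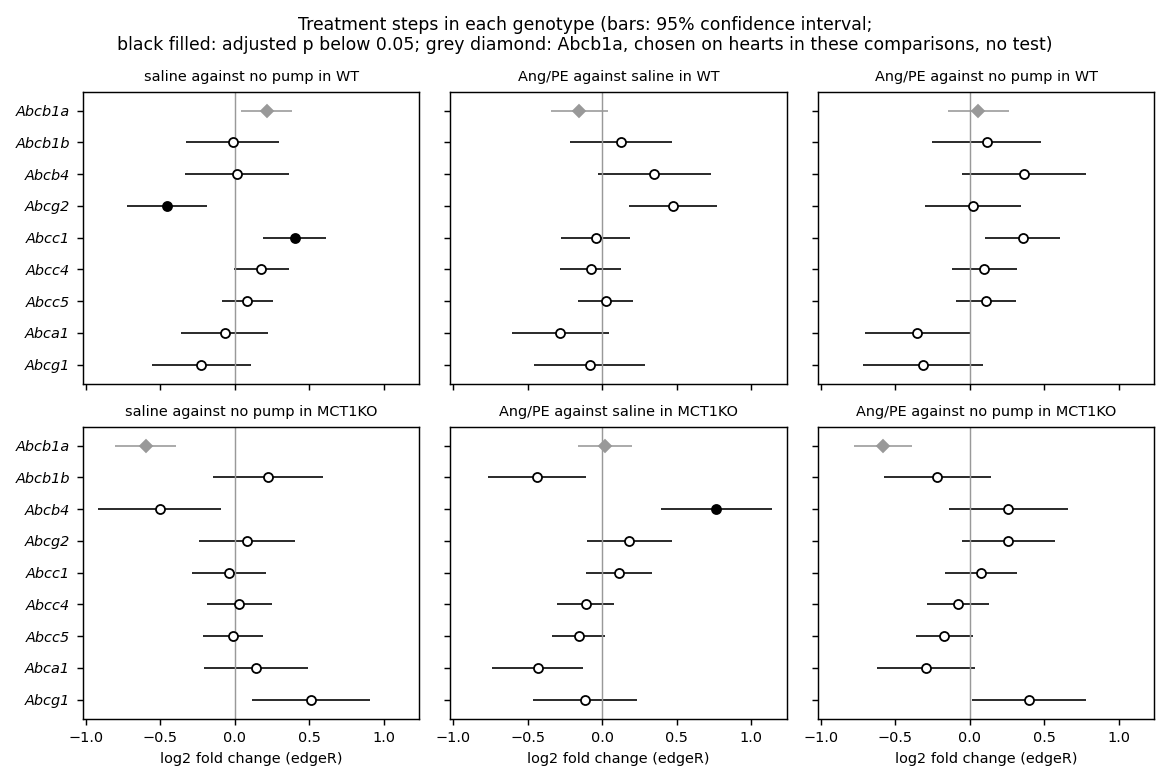
Log2 fold change (x axis, edgeR, with its 95% confidence interval) of each of the 9 genes (y axis) for 3 treatment steps in WT (top) and MCT1KO hearts (bottom). Black filled points have an adjusted p below 0.05: Abcg2 (-0.45) and Abcc1 (0.40) with saline in WT, and Abcb4 (0.76) with Ang/PE against saline in MCT1KO; grey diamonds mark Abcb1a, which was chosen on hearts in these comparisons and is not tested.

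Abcg2 (ENSMUSG00000029802), the breast cancer resistance protein gene, was lower with saline than without a pump in WT hearts. It was at 26.2, 41.1, 43.8 and 32.0 CPM without a pump and at 24.2 to 28.0 CPM (median 25.9) with saline. The saline hearts were closely grouped, and replicate 1 of the hearts without a pump lay inside their range. The log2 difference was -0.45 (SE 0.13; edgeR adjusted p = 0.0399). The call was lost in 9 of 10 fits that left out 1 heart (values from -0.58 to -0.35, adjusted p up to 0.189), with Xist as a covariate (-0.34; adjusted p = 0.132) and without the hearts with atrial markers (-0.45; adjusted p = 0.255). In the same comparison all 7 macrophage markers had negative log2 differences, with a median of -0.72, and 5 were called lower. Their summed level was 225.9 to 390.3 CPM without a pump against 176.1 to 252.0 CPM with saline. For Ang/PE against no pump in WT, all 7 were also negative, with a median of -0.61, while Abcg2 differed by 0.02 (SE 0.16). Against saline in WT the macrophage median was 0.11. Within groups, Abcg2 had r = 0.59 with the mean log2 CPM of these markers. The part of macrophages in the Abcg2 values was not tested. With Ang/PE, Abcg2 was at 33.9, 31.4 and 43.4 CPM in WT hearts, all above the saline hearts, and the step of 0.47 (SE 0.14) did not pass with edgeR (adjusted p = 0.0937) but did with DESeq2 (adjusted p = 0.0478). In MCT1KO hearts it was at 31.5, 23.2 and 30.6 CPM without a pump, at 27.5, 30.5, 37.9 and 24.5 CPM with saline and at 35.0, 35.9, 28.3, 35.9 and 35.2 CPM with Ang/PE. These groups overlapped, and the difference between the genotypes' saline steps, 0.53 (SE 0.21), did not pass (adjusted p = 0.194).

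Abcc1 (ENSMUSG00000023088), the exporter of glutathione conjugates and leukotriene C4, was higher with saline than without a pump in WT hearts. It was at 54.6, 58.8, 59.7 and 55.9 CPM without a pump and at 63.1 to 86.1 CPM (median 74.7) with saline. Every saline heart was above every heart without a pump, and the log2 difference was 0.40 (SE 0.10; edgeR adjusted p = 0.0257). The adjusted p was 0.148 without the hearts with atrial markers (0.44), 0.671 with atrial and adipocyte scores as covariates (0.33), and 0.0522 to 0.0800 without any 1 of WT no-pump replicates 2, 3 and 4 or WT saline replicate 6. MCT1KO hearts were already at 61.5, 77.7 and 81.5 CPM without a pump, all above the WT hearts without a pump, and the genotype difference there was 0.36 (SE 0.12; adjusted p = 0.268). With saline they were at 81.3, 81.3, 58.0 and 65.8 CPM and did not separate from their no-pump group (-0.04; SE 0.12; adjusted p = 0.936). The genotype difference of the saline step, -0.44 (SE 0.16), did not pass (adjusted p = 0.175). With Ang/PE, Abcc1 was at 67.3, 65.5 and 87.0 CPM in WT and at 82.2, 78.3, 77.3, 74.8 and 74.9 CPM in MCT1KO hearts, and the WT hearts without a pump had the lowest group mean (57.3 CPM).

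Abcc4 (ENSMUSG00000032849) and Abcc5 (ENSMUSG00000022822), which export cyclic nucleotides, were called in none of the 12 comparisons. Abcc4 lay between 22.4 and 33.0 CPM over all hearts, with group means from 25.2 in WT without a pump to 30.8 in MCT1KO with saline. Its largest genotype difference was 0.26 without a pump (adjusted p = 0.331). Abcc5 lay between 63.6 and 91.1 CPM, and its lowest and highest group means were 76.3 in MCT1KO with Ang/PE and 85.9 in MCT1KO without a pump.

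Abca1 (ENSMUSG00000015243), which loads cholesterol onto apolipoprotein A-I, was at 83.0, 90.3, 98.6, 115.1 and 114.7 CPM with Ang/PE in MCT1KO hearts and at 113.5, 119.8, 107.0 and 202.0 CPM with saline. These groups overlapped, and the log2 difference of -0.43 (SE 0.15) did not pass (edgeR adjusted p = 0.0909). The highest saline value is that of replicate 4, and without the hearts with atrial markers the difference was -0.10. In WT hearts it was at 100.6, 111.5 and 88.1 CPM with Ang/PE, below all 4 hearts without a pump (120.7 to 140.2 CPM), and that step was -0.35 (adjusted p = 0.548). Abcg1 (ENSMUSG00000024030), which passes cholesterol to high-density lipoprotein, ran higher in MCT1KO than in WT hearts with either pump content. With Ang/PE it was at 9.78, 10.3, 10.7, 10.5 and 12.1 CPM in MCT1KO and at 7.52, 8.18 and 7.72 CPM in WT hearts, without overlap, and the difference was 0.45 (adjusted p = 0.711). With saline it was at 10.1, 10.1, 9.75 and 16.2 CPM against 6.01 to 11.5 CPM (median 8.24), a difference of 0.48 (adjusted p = 0.170), or 0.26 without the hearts with atrial markers. Neither passed the test. Without a pump Abcg1 was at 8.49, 6.09 and 9.65 CPM in MCT1KO and 8.89 to 10.9 CPM in WT hearts, so the order of the genotypes was not the same there.

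Abca1 and Abcg1 are targets of the liver X receptors. Of 20 genes of cholesterol efflux and these receptors, 0 were higher and 2 lower with Ang/PE against saline in MCT1KO, with a list median of -0.20: Nr1h3, the gene of liver X receptor alpha (-0.63; adjusted p = 0.0313), and Pltp, the phospholipid transfer protein gene (-0.55; adjusted p = 0.0163). Both are also expressed by macrophages and adipose tissue, and in that comparison all 5 tested adipocyte markers and all 3 atrial markers were lower. Of all genes, 4.46% were called with Ang/PE against saline in MCT1KO. None of the 20 was called in any of the other 11 comparisons, most of which called few or no genes.

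Of 44 other ABC transporter genes, 31 were tested. With saline in WT hearts, 3 were higher and 1 lower, with a median of 0.080, beside 6.61% of all genes called. Those higher were Tap2, a subunit of the antigen peptide transporter (0.38; adjusted p = 0.0202), Abcb9, a lysosomal peptide transporter (0.59; adjusted p = 0.0376), and Abca2 (0.36; adjusted p = 0.0471); Abcc3, an organic anion exporter, was lower (-0.80; adjusted p = 0.0307). In MCT1KO hearts with Ang/PE, Abca6 was lower both against saline (-0.52; adjusted p = 0.0223) and against no pump (-0.84; adjusted p = 0.00556). Abcd2, a peroxisomal fatty acid transporter, was lower against saline (-1.34; adjusted p = 0.0304), and Abca12, a lipid transporter of skin, against no pump (-0.96; adjusted p = 0.0396). Of all genes, 4.46% were called with Ang/PE against saline in MCT1KO and 0.503% against no pump. In the first of these, all 5 tested adipocyte markers and all 3 atrial markers were also lower, and the part of this tissue was not tested. None of the 31 was called in the other 9 comparisons, none of which called more than 3 of 17682 genes.

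Of 16 carriers that bring drugs and organic ions into cells, 2 were lower and 0 higher with Ang/PE against saline in MCT1KO hearts, among them Slc22a17 (-0.87; edgeR adjusted p = 0.0465). Against no pump 2 were lower and 0 higher, among them Slco5a1 (-0.75; adjusted p = 0.0130). The median over the 16 was -0.29 in the first comparison and -0.23 in the second, where 4.46% and 0.503% of all genes were called. Of 18 xenobiotic and stress regulators, Gsta4, a glutathione transferase of lipid peroxidation products, was the only call, higher with Ang/PE against saline in MCT1KO (0.40; adjusted p = 0.0447). Of 17 endothelial barrier genes, 1 was higher and 1 lower with saline in WT, where 6.61% of all genes were called. The lower was Foxf2, a transcription factor gene of brain pericytes (-1.64; adjusted p = 0.0404). Cav1, the caveolin gene, was lower with Ang/PE against saline in MCT1KO (-0.54; adjusted p = 0.0416). That comparison also gave the Slc22a17 and Gsta4 calls. In it all 5 tested adipocyte markers and all 3 atrial markers were called lower, and the part of this tissue was not tested.

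The PAR bZIP factors Dbp, Hlf and Tef are driven by the circadian clock and are known regulators of drug-handling genes. Of 17 tested genes of the clock and these factors, 1 was higher and 6 were lower with Ang/PE against no pump in MCT1KO, with a list median of -0.66. Of all genes, 0.503% were called there. Arntl, the gene of the clock activator BMAL1, rose by 1.6 on the log2 scale (SE 0.34; adjusted p = 0.0324). The largest falls by p-value were in Nr1d2, a clock repressor gene (-0.80; adjusted p = 0.00640), Per3, a period gene (-1.70; adjusted p = 0.00640), and Dbp (-2.18; adjusted p = 0.00646). Dbp was at 11.6 to 37.6 CPM with Ang/PE, 61.1 to 154 CPM without a pump and 79.7 to 153 CPM with saline in MCT1KO hearts. Against saline 4 of the 17 were higher and 8 lower, with a median of -0.62, beside 4.46% of all genes called. The hour at which hearts were taken is not in the labels.

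The 5 genes whose log2 CPM was most like that of Abcb1a over the 25 hearts, among 11666 named genes with a mean log2 CPM above 1, were Hs3st5 (r = 0.83), Tmem44 (0.82), Cxcl12 (0.82), Cdh23 (0.81) and Fgf9 (0.81). Within groups, as deviations from group means, these were 0.67, 0.83, 0.68, 0.65 and 0.63. The hearts share their normalization, and the order is a description. Of the other 8 transporter genes, Abcc4 was most like Abcb1a (r = 0.192) and Abcg1 ran most against it (r = -0.630).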

How the data were processed

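The authors deposited 1 table of raw counts per gene for 25 hearts. Per the submitters' processing notes, STAR 2.7.9a, cutadapt 1.16, featureCounts 1.6.3 and DESeq2 1.42.1 were used with builds GRCm39 and mm39. Counting options (strand, reads matching several genes) are not given in the sources used here. Symbols matched 51948 of 56941 Ensembl identifiers, and all 25 columns matched a sample title.

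Genes passing edgeR's filterByExpr (17682) were normalized by TMM and fitted once over all 6 groups (R 4.3.3, edgeR 4.0.16, quasi-likelihood test, two-sided, 19 residual degrees of freedom, Benjamini-Hochberg over all tested genes, called below 0.05). Depth was 12216704 to 24880683 counts per heart. CPM use TMM-scaled library sizes. Replicate pairs of a group (43) differed beyond sampling noise, with a chi-square per degree of freedom of at least 3.334 and a median of 23.02. The lowest value was that of MCT1KO saline replicates 1 and 2. No library was counted as a copy, but this comparison cannot tell 2 libraries of 1 heart from 2 hearts. Alternatives were RLE scaling, DESeq2 1.42.0, no filter, only the groups compared, a replicate block, a non-robust fit and mitochondrial genes removed. Further ones were covariates (Xist, endothelial score, atrial and adipocyte scores) and each heart left out. Reads of Abcb1a were also summed with those of Abcb1b, and with those of Abcb1b and Abcb4. Leaving out the 7 hearts with atrial markers was added after seeing the data.

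The members, lists and tests were chosen with earlier results of these data known. All 9 members are named. Of list genes, those called are named (a few are not reported here), at most 3 per direction and list by smallest p, with the 5 genes most like Abcb1a by Pearson r. The files' build is GRCm39 and the sequences come from GRCm38, so no coordinates of one were used with the other.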

Additional observations from a re-analysis of the deposited data

Results flagged for a closer look

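Of 36 sets of 4 to 6 hearts (a gene in a group), 4 had a heart standing apart by Dixon's test, where chance gives about 1 in 20 (1.8 of 36). In MCT1KO saline replicate 4, Abcb4 was at 14 CPM, below the other 3 hearts, and Abca1 at 202 CPM and Abcg1 at 16.2 CPM were above them. The same heart held the highest levels of atrial (3679 CPM) and adipocyte (1448 CPM) markers. In MCT1KO Ang/PE replicate 3, Abcg2 was at 28.3 CPM, below the other 4 hearts (35.0 to 35.9 CPM). The log2 difference of Abcb1a between saline and no pump was lower in MCT1KO than in WT hearts by the value on which the gene was chosen, -0.812, and is listed here as a description only.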

How the results depend on the processing

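None of the 7 fold changes followed through the alternatives reversed. Among them are Abcb1a values for the genotype difference of the saline step and for saline or Ang/PE against no pump in MCT1KO. Those use hearts on which the gene was chosen, so their kept sign is a description only. Of 132 counts of members called (12 comparisons, 11 alternatives), 106 stayed within 1.5 times the reported count. These include counts of 0 that stayed 0, in comparisons where few or no genes were called at all. Where a member was called, the count stayed in 6 of 11 alternatives for saline in WT and 4 for saline in MCT1KO. It stayed in 7 for Ang/PE against saline in MCT1KO, 10 for Ang/PE against no pump in MCT1KO and 6 for the genotype difference of the saline step. The counts include calls of Abcb1a in comparisons that use hearts on which it was chosen, from which nothing is read. For the genotype comparison with saline, 0 became 1 with DESeq2 and with the replicate block (Abcb1a). For saline against no pump in WT, 2 became 1 without a filter or with Xist as a covariate, and 0 with the replicate block, with atrial and adipocyte covariates or without hearts with atrial markers. For saline against no pump in MCT1KO, 1 became 0 without a filter, with only the groups compared, with the replicate block, with a non-robust fit, with endothelial or atrial and adipocyte covariates, and without hearts with atrial markers. For Ang/PE against saline, WT went from 0 to 1 (Abcg2) with DESeq2 and with only the groups compared, and MCT1KO from 1 to 0 without a filter, with only the groups compared, with atrial and adipocyte covariates and without hearts with atrial markers. For Ang/PE against no pump in MCT1KO, 1 became 0 with only the groups compared. For the genotype difference of the saline step, 1 became 0 with only the groups compared, with Xist, endothelial or atrial and adipocyte covariates, and without hearts with atrial markers. The causes were not tested, except that the last fit has fewer hearts.

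With single hearts left out, members called ranged from 0 to 1 for genotype with saline, 0 to 2 for saline in WT (60 to 2234 genes called in all, lowest without WT no-pump replicate 3), 0 to 1 for saline in MCT1KO, 0 to 2 for Ang/PE against saline in MCT1KO (39 genes in all without saline replicate 4, 1541 without saline replicate 3), 0 to 1 for Ang/PE against no pump in MCT1KO (1 to 123 genes, lowest without no-pump replicate 2), and 0 to 2 for the genotype difference of the saline step.

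Same-numbered hearts of different groups did not deviate together on average (mean correlation 0.00941 over 52 pairs). Single pairs ran from -0.232 to 0.405, with 9 above 0.1, so whether some of these hearts belong together cannot be told. The replicate block uses the number shared by titles. Under it Abcc1 (0.39; adjusted p = 0.0558) and Abcg2 (adjusted p = 0.0667) lost their calls with saline in WT, and the value of Abcb1a for Ang/PE against no pump in MCT1KO was -0.54. Depth limits Abcb1b most, with 83 to 240 reads per heart.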
